A study of Mus musculus with 5 samples.

Results

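PEP1_Dcn neurons are 1 of 12 neuron types that the authors' deposited annotation names in the lumbar dorsal root ganglia of the mouse, and the name joins the peptidergic class PEP1 with the gene Dcn. All cells that carry this label in the annotation were taken, with no further selection. They are 163 of 3352 cells and 163 of 3047 neurons. The study made single-cell RNA libraries with the Chromium 3′ assay from 5 mice and labels all of them as wild type. The mice were untreated adults of the C57BL/6 strain at 18 weeks of age, 3 males and 2 females, and there was no second condition. Ganglia were digested with enzymes to single cells and cleaned on a density gradient, so the cells are those that survived dissociation. The cell names hold 5 library identifiers, here called library 1 to library 5, and no label ties one of them to a particular mouse. A library served as 1 replicate.

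Peptidergic nociceptors are unmyelinated or thinly myelinated sensory neurons that report painful heat, irritants and tissue injury. They store the neuropeptides CGRP (from Calca) and substance P (from Tac1) in dense-core vesicles and release them in the spinal cord and in the skin and viscera. Dcn codes for decorin, a small leucine-rich proteoglycan of the extracellular matrix that binds collagen and is best known from fibroblasts. Levels below are UMIs (unique molecular identifiers, each standing for 1 captured transcript) of a gene per 1000000 UMIs (CPM), taken from the sum of all cells of a type in a library. Reads were captured at the 3′ end of transcripts, so levels are compared between cell types and not between genes.

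PEP1_Dcn cells numbered 4, 35, 29, 28 and 67 in libraries 1 to 5. Their share of the cells was 2.44% (95% Clopper-Pearson interval 0.668 to 6.13), 6.49% (4.56 to 8.91), 6.12% (4.14 to 8.67), 3.48% (2.32 to 4.99) and 4.89% (3.81 to 6.17), with a mean of 4.68% ± 1.72 (SD, n = 5). Among neurons the mean share was 5.37% ± 2.14. Library 1 was both the lowest and the one with the fewest cells, and its interval overlapped those of the other libraries. The summed cells held 292121 UMIs in library 1 and 1438318 to 3091146 in the other libraries, so 1 UMI in library 1 was worth 3.42 CPM and low values from it are coarse. Intervals cover counting error only. Of the cell barcodes, 7 occurred in more than 1 library, and 0 of them were in PEP1_Dcn cells.

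The label was first checked against its markers. Dcn stood at 137, 524, 810.4, 804 and 416 CPM in libraries 1 to 5, a mean of 538 ± 283 (SD). The lowest of these values, from the 4 cells of library 1, was still above the highest value of any other neuron type in any library, which was 98.3 CPM in the NP_Mrgprd neurons of library 3. Mean Dcn was 10.7-fold above the next neuron type, PEP2_Htr3a.Sema5a (50.1 CPM), and 34.6-fold and 14.5-fold above the other PEP1 types, PEP1_S100a11.Tagln2 (15.5) and PEP1_Slc7a3.Sstr2 (37.2). Differences among the types below PEP1_Dcn were mostly within their spread, since PEP1_Slc7a3.Sstr2 alone ranged from 2.24 to 97.6 CPM. Because the authors drew the types from these same counts, the gene values of PEP1_Dcn against other types describe the type and are not independent evidence for it. They are therefore given without p-values.

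Decorin transcripts were spread unevenly over the cells. Of 163 PEP1_Dcn cells, 52 had no Dcn UMI, 45 had 1 to 9, 48 had 10 to 99 and 18 had at least 100. The 16 cells with the most Dcn UMIs held 51.7% of them. A Dcn UMI was found in 111 cells (68.1%), and in 50.9% after each cell was thinned to 10000 UMIs, compared with 7.2% of PEP1_S100a11.Tagln2, 7.3% of PEP1_Slc7a3.Sstr2, 19.4% of PEP2_Htr3a.Sema5a and 4.02% of satellite glia at the same depth. By library the share was 1 of 4, 23 of 35, 19 of 29, 21 of 28 and 47 of 67 cells. Before thinning the median cell had 49516 UMIs in PEP1_Dcn and 17729 in satellite glia. Dcn was not restricted to neurons. Satellite glia ranged from 2.52 to 679 CPM and endothelial cells from 0 to 775, and in satellite glia 633 of 688 Dcn UMIs (92.0%) came from 3 of 249 cells.

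Markers of fibroblasts, the cells best known for decorin, stayed low in these neurons. Without Dcn, the list summed to 75.3 to 123 CPM in the 5 libraries of PEP1_Dcn and 54.3 to 94.0 in the mean of the other neuron types. Among its 10 measured genes Col1a2 and Col3a1 had no UMI. By the rule given with the comparisons below 1, Apod, was called higher at 38.9 CPM, where 8.18% of all genes were. Satellite glia markers summed to 288 to 395 CPM, below the 437 to 667 of the other neurons, with Kcnj10, Cdh19 and Sox10 at 0. Of the 9 endothelial genes Cdh5 and Tie1 were at 0, and 1 gene, Egfl7, was called higher at 126 CPM (8.18% over all genes). The list summed to 110.1 to 161 CPM against 68.0 to 81.4 in the other neurons. Pericyte markers summed to 0.651 to 4.52 CPM with Myh11, Kcnj8 and Notch3 at 0. Macrophage markers summed to 13.7 to 23.8 CPM against 3.22 to 9.56, with C1qc and Ptprc at 0. Of the 9 macrophage genes 1, C1qb, was called higher at 10.2 CPM (8.18% over all genes).

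**Figure D1:**
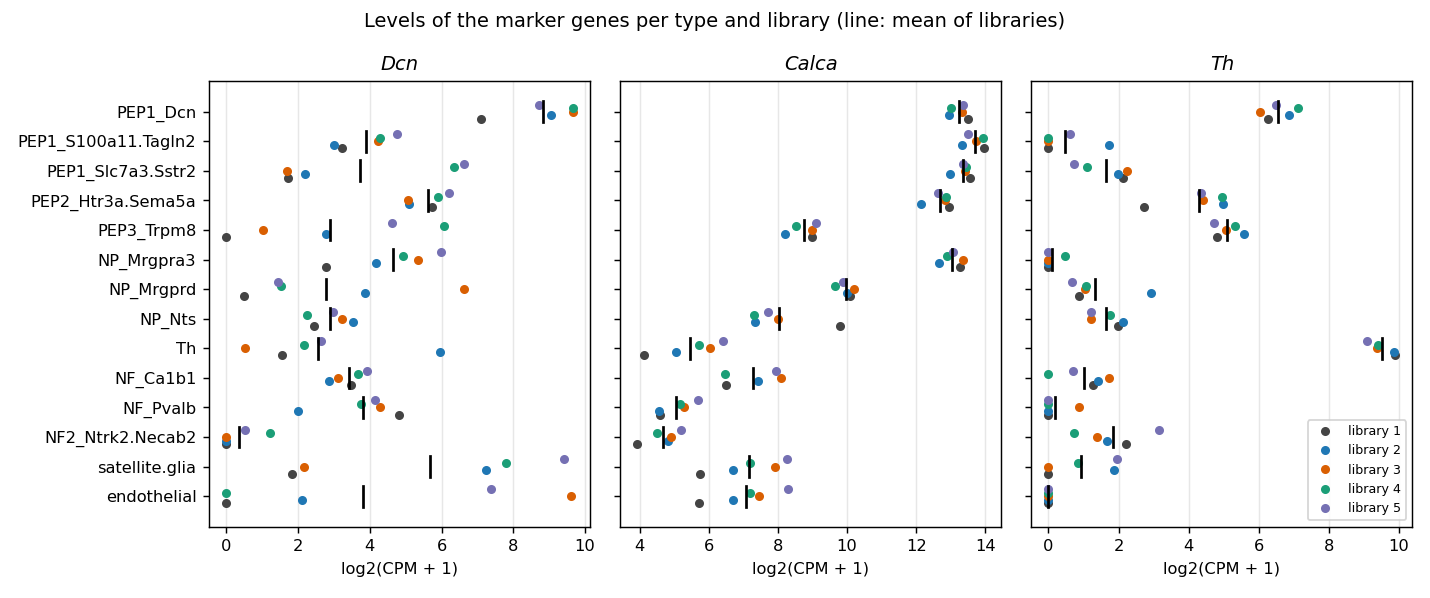
Levels of Dcn, Calca and Th in each of the 14 cell types, on a log2(CPM + 1) axis, with 1 point per library and a line at the mean of the libraries. All 5 PEP1_Dcn points for Dcn lie to the right of every other neuron type. Calca overlaps with the other PEP1 types and with NP_Mrgpra3, and Th lies between the Th neurons and the other PEP1 types.

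Calca in PEP1_Dcn stood at 11684, 7857, 10195, 8219 and 10546 CPM, a mean of 9700.1 ± 1619, below the means of PEP1_S100a11.Tagln2 (13435 ± 2504) and PEP1_Slc7a3.Sstr2 (10482 ± 1498), and the 3 types overlapped. Within matched libraries it was below PEP1_S100a11.Tagln2 in 5 of 5 and below PEP1_Slc7a3.Sstr2 in 4 of 5. The fitted log2 difference from the mean of the log levels of the 11 other neuron types was 3.87 ± 0.15 (SE). Over the plain mean of those types the level was only 2.58-fold higher. NP_Mrgpra3 neurons, at 6470 to 10512 CPM, overlapped with PEP1_Dcn, and PEP2_Htr3a.Sema5a held 4510 to 7853. A Calca UMI was found in all 163 cells. That share says little, since 88.0% of satellite glia also had one, but thinned to the same depth the shares were 98.8% and 67.1%. Of the 8 fixed peptidergic nociceptor markers 6 were called higher than in the other neuron types (8.18% over all genes). The sum of the 8 was 14138 to 21542 CPM against 5277 to 7276.

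Tyrosine hydroxylase (Th), the rate-limiting enzyme of catecholamine synthesis and the name gene of another sensory neuron type, was also present. Th stood at 75.3, 116, 64.5, 138 and 89.0 CPM in PEP1_Dcn, a mean of 96.4 ± 30.0. The Th neurons held 747 CPM. In the other PEP1 types it was 0.569 and 2.37 CPM, which is 169-fold and 40.7-fold lower, and the libraries did not overlap. Th was less far below in the other peptidergic types, at 25.3 to 46.9 CPM in PEP3_Trpm8 and 5.67 to 30.5 in PEP2_Htr3a.Sema5a. The plain mean of the 11 other types, which the Th neurons carry, was 74.1 CPM over the libraries. PEP1_Dcn was above the same library's own mean of the 11 types in 3 of 5 libraries, and Th was no longer called when the other neurons were summed. A Th UMI was seen in 105 cells (64.4%, and 44.2% at 10000 UMIs against 1.2% of satellite glia). Dcn and Th were both seen in 79 cells, Dcn alone in 32, Th alone in 26 and neither in 26. No other gene of the Th neuron marker list was called higher, and Fam19a4 had 3 UMIs in all PEP1_Dcn cells against 561 CPM in Th neurons.

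Genes were compared in 3 ways, each fitted with edgeR over 11561 genes. PEP1_Dcn was set against the equally weighted mean of the log levels of the 11 other neuron types, against PEP1_S100a11.Tagln2 and against PEP1_Slc7a3.Sstr2. A gene was called when it differed by at least 2-fold with an adjusted p under 0.01 and had a UMI in at least 25% of the cells of the higher type. Against the 11 types 946 genes (8.18% of those tested) were called higher and 296 (2.56%) lower. Against PEP1_S100a11.Tagln2 526 (4.55%) were higher and 287 (2.48%) lower, and against PEP1_Slc7a3.Sstr2 527 (4.56%) were higher and 273 (2.36%) lower. A mean of log levels gives weight to types in which a gene is nearly absent. Of the 946 genes, 283 were highest in PEP1_Dcn of the 12 types, 627 exceeded the plain mean of the other types in 5 of 5 libraries, and 71 lay below that mean. Called higher in all 3 comparisons were 195 genes, and 92 of these were also highest in PEP1_Dcn. The largest differences are named next, by a rule stated with the methods.

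Tmem8c gave the largest fitted difference. It is listed in RefSeq as Mymk and codes for myomaker, a membrane protein known for the fusion of muscle precursor cells. Its level was 65.0, 35.3, 76.2, 50.8 and 29.1 CPM, a mean of 51.3 ± 19.7. The next neuron type, PEP1_Slc7a3.Sstr2, had 1.91 CPM (26.9-fold lower), 6 of the 11 other types had no UMI, and against PEP1_S100a11.Tagln2, with 0 UMIs, the level was at least 141-fold higher (a floor of 3 counts over the group). A UMI was found in 46.0% of PEP1_Dcn cells and in 0 of 249 satellite glia. Tmc3, of the transmembrane channel-like family, was at 6.85, 30.4, 46.9, 26.4 and 14.9 CPM, 27.8-fold above the next type, PEP3_Trpm8 (0.901). It also had no UMI in PEP1_S100a11.Tagln2, at least 85.0-fold lower. Both genes were thus nearly confined to PEP1_Dcn among the 12 neuron types measured here.

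Among the genes with the largest differences were 3 with roles in cholinergic signalling, which were picked out after their values were seen. In the fixed list of nicotinic and other ligand-gated channels 7 of 26 were called higher and 2 lower, with a median log2 difference of 0.15, where 8.18% and 2.56% of all genes were called. Chrna3 and Chrnb4 code for the subunits of the nicotinic acetylcholine receptor of autonomic ganglia, and Slc5a7 codes for the high-affinity choline transporter. Chrna3 was at 54.8, 149, 53.4, 106 and 85.4 CPM (89.7 ± 39.9), 2.19-fold above PEP2_Htr3a.Sema5a (41.0) and 19.3-fold above PEP1_S100a11.Tagln2 (4.65), and PEP1_Slc7a3.Sstr2 had 3 UMIs in all. The PEP1_S100a11.Tagln2 mean rests on library 1, at 21.6 CPM, where the other libraries were at 0 to 1.39. Chrnb4 was at 71.9, 103, 53.4, 93.2 and 67.6 CPM (77.9 ± 20.2), 3.26-fold above PEP2_Htr3a.Sema5a (23.9) and 69.4-fold above PEP1_S100a11.Tagln2 (1.12). Both were high in PEP1_Dcn, intermediate in PEP2_Htr3a.Sema5a and low in the other PEP1 types, whose libraries did not overlap with those of PEP1_Dcn. Slc5a7 was at 17.1, 52.2, 34.5, 41.7 and 48.8 CPM (38.9 ± 13.9), 4.35-fold above PEP1_S100a11.Tagln2 (8.95) and 12.9-fold above PEP1_Slc7a3.Sstr2 (3.01), and it was above the former in 4 of 5 matched libraries and below it in 1. Chrnb3, another nicotinic subunit, was at 62.3 ± 24.0 CPM and was shared with PEP1_Slc7a3.Sstr2 (39.3 ± 12.8). The enzyme that makes acetylcholine (Chat) and its vesicular transporter (Slc18a3) were not analysed here, since neither has a row in the matrix.

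Chrna3 and Chrnb4 are neighbours on the minus strand of chromosome 9. In the RefSeq annotation of GRCm38.p6 Chrna3 spans chr9:55010117-55026562 and Chrnb4 chr9:55028154-55048953, with 1591 bases and 0 protein-coding genes between them. In single PEP1_Dcn cells both were seen in 78 cells, Chrna3 alone in 2, Chrnb4 alone in 23 and neither in 60. Their promoters are shown because the genes moved together, with that of Slc5a7 for comparison. Each window holds 250 bases before and 50 bases after the start that the RefSeq promoter table on GRCm38.p6 uses, read 5′ to 3′ on the minus strand, at chr9:55026513-55026812, chr9:55048495-55048794 and chr17:54298985-54299284. For Chrnb4 that start lies inside the gene span given above, so its whole window lies within the span, while the windows of Chrna3 and Slc5a7 straddle the 5′ end of theirs. Capitals mark matches, on either strand, to the GC box (GGGCGG), the CCAAT box (CCAAT), the TATA box (TATAAA) and an E-box (CAGCTG).
Chrna3: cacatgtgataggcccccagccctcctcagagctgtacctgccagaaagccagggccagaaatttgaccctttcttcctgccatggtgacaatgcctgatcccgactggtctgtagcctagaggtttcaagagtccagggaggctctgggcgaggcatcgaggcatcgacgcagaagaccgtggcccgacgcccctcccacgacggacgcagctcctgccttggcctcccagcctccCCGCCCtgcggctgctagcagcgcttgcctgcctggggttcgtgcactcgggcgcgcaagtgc
Chrnb4: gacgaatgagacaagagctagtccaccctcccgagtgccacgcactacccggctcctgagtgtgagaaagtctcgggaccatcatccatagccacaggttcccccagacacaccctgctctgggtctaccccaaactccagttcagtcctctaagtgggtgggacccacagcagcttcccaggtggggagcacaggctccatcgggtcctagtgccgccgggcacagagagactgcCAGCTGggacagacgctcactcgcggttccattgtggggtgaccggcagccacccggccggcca
Slc5a7: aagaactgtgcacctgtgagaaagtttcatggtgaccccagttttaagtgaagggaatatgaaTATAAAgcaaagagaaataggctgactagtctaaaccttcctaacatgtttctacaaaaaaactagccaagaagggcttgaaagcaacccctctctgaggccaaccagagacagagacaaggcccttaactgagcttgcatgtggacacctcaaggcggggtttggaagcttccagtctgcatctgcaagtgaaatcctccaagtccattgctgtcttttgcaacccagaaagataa
Chrna3 held 1 GC box, Chrnb4 1 E-box and Slc5a7 1 TATA box, and no window shared a motif with another. Among 32817 promoters of the same length these letters occur in 35.6% (GC box), 16.3% (E-box), 13.6% (TATA box) and 37.4% (CCAAT box), so each match is common. Dcn and Tmem8c have no entry in the promoter table.

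Further genes of the largest differences fall into receptors, regulators and secreted proteins. Adra2a, the alpha-2A adrenergic receptor, which responds to noradrenaline, stood at 85.6, 48.0, 12.4, 66.7 and 38.8 CPM and was 18.5-fold above the next type, PEP1_S100a11.Tagln2 (2.71). Mrap2, an accessory protein of melanocortin receptors, was even across libraries at 109.5, 113, 82.7, 133 and 118 CPM, 4.14-fold above PEP2_Htr3a.Sema5a and 134-fold above PEP1_Slc7a3.Sstr2. Nhlh2, a basic helix-loop-helix transcription factor of neurons, was at 37.2 ± 14.6 CPM, 1.86-fold above PEP3_Trpm8 and 7.31-fold above PEP1_Slc7a3.Sstr2. C1qtnf7, a secreted protein of the C1q and TNF-related family, was at 105 ± 62.5 CPM and 7.93-fold above the next type. Of the Wnt pathway, the ligand Wnt4 was at 24.4 ± 6.97 CPM, 3.72-fold above PEP1_S100a11.Tagln2, and the Wnt enhancer Rspo1 was at 105 ± 29.8 CPM, below NP_Mrgpra3 (161). Adcy7, an adenylyl cyclase, was 2.54-fold above PEP1_Slc7a3.Sstr2, Ptchd1 2.19-fold above PEP1_S100a11.Tagln2 and the unnamed transcript B230216N24Rik 5.33-fold above PEP3_Trpm8.

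Other genes of this set were as high or higher in another type. Fxyd6, a regulator of the sodium pump, was at 629 ± 137 CPM against 753 in Th neurons. Its relative Fxyd5 (91.0 ± 40.1) and the secreted antioxidant enzyme Gpx3 (1719.6 ± 759.6) had the highest means in PEP1_Dcn, but by less than their SD over PEP1_Slc7a3.Sstr2 (72.2 and 1679.8). Zcchc12 was at 113 ± 20.5 CPM and higher in both PEP1_Slc7a3.Sstr2 (161) and PEP3_Trpm8 (271). Slc7a3, a transporter of cationic amino acids and the name gene of another PEP1 type, was at 29.2 ± 23.7 CPM against 42.6 ± 17.3 there. For these genes PEP1_Dcn stands apart from most neuron types but not from all.

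**Figure D2:**
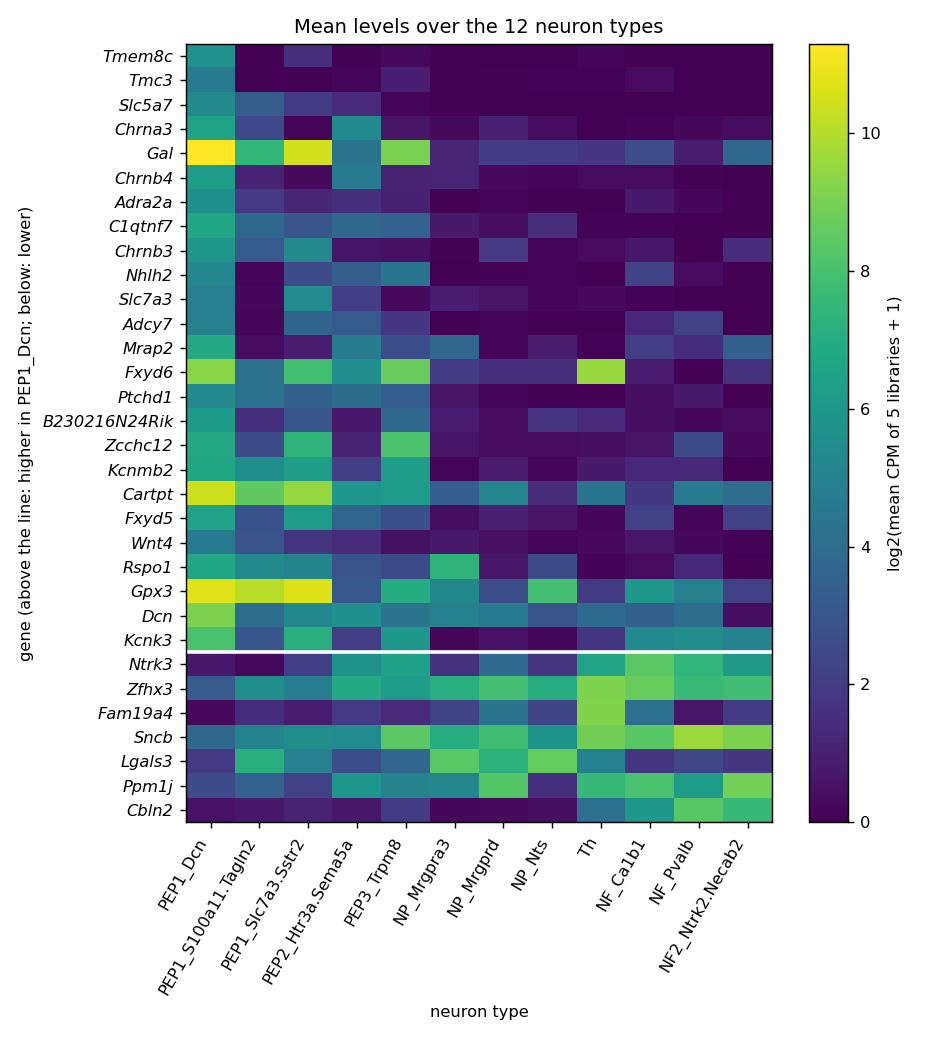
Mean level of the 25 genes with the largest difference above (upper rows) and of 7 of the 8 with the largest difference below (lower rows) the other neuron types, as log2(mean CPM of 5 libraries + 1) in colour, over the 12 neuron types. Tmem8c and Tmc3 are brighter in the PEP1_Dcn column than in any other, whereas Gpx3, Zcchc12 and Slc7a3 are of similar brightness in PEP1_Slc7a3.Sstr2.

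Among the genes called lower, 110 of 296 were lowest in PEP1_Dcn of the 12 types. The transcription factor Zfhx3 stood at 3.42, 24.2, 3.26, 2.78 and 8.09 CPM against a mean of 198 in the other types (23.7-fold lower), and it was the lowest of the 12 types. The synuclein Sncb, at 12.7 ± 6.64 CPM, was 21.2-fold below the mean of the others (270.2) and also the lowest. Lgals3 (galectin-3) was 37.9-fold lower (2.67 against 101 CPM) and the phosphatase Ppm1j 27.0-fold lower (4.95 against 134). Ntrk3, the neurotrophin-3 receptor of proprioceptors and touch neurons, had 7 UMIs (0.636 CPM against 76.5) and the synaptic organiser Cbln2 had 5 (0.481 against 54.7). The low levels of Ntrk3, Cbln2 and Ppm1j were not particular to PEP1_Dcn. PEP1_S100a11.Tagln2 and PEP1_Slc7a3.Sstr2 had 3 and 46 UMIs of Ntrk3 and 10 and 21 of Cbln2. Ppm1j there was 2.17-fold and 0.740-fold its level in PEP1_Dcn. The highest types were NF_Ca1b1 (Ntrk3), NF_Pvalb (Cbln2) and NF2_Ntrk2.Necab2 (Ppm1j).

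Of 17 tested neuropeptide precursors 7 were called higher and 0 lower against the 11 other types, where 8.18% and 2.56% of all genes were, with a median log2 difference of 1.91 where all genes had 0.05. Gal, the precursor of galanin, was at 3276, 1642, 2675, 1872 and 3106 CPM, a mean of 2514 ± 729.7 and the highest of the 12 types. It was 14.3-fold above PEP1_S100a11.Tagln2 (176 ± 49.1) and 1.70-fold above PEP1_Slc7a3.Sstr2 (1475 ± 153), a difference that was not called. Cartpt, the precursor of the CART peptides, was also the highest at 1373 ± 616 CPM, 3.71-fold above PEP1_S100a11.Tagln2 and 1.91-fold above PEP1_Slc7a3.Sstr2. Adcyap1 (PACAP) was at 317 ± 46.6 CPM and Calcb (beta-CGRP) at 807 ± 188, and both ranked second of the 12. Tac1, at 3546 ± 1129.8 CPM, was called higher than the 11 types yet stood below both other PEP1 types (6434 and 5622), a difference that was not called. Nmb (neuromedin B) was called higher at 362 ± 62.9 CPM, but ranked 6 of 12, and the sign turned when the other neurons were summed instead of averaged on the log scale (log2 of -0.52). Against PEP1_S100a11.Tagln2 2 of the 17, Gal and Cartpt, were higher (4.55% over all genes), and against PEP1_Slc7a3.Sstr2 0 differed.

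Of 18 genes for processing and storing peptides 7 were called higher and 0 lower (8.18% and 2.56% over all genes). Pam, which amidates peptide ends, was at 268 ± 53.6 CPM and the highest of the 12 types, 1.33-fold above PEP3_Trpm8. The dense-core vesicle proteins Ptprn (304.7 to 450.5 CPM) and Ptprn2 (94.6 ± 8.37) were also highest, by 1.09-fold and 1.30-fold over the next type, so the order of Ptprn and its neighbours lies within the spread. Scg2 ranked 5 of 12 at 895 ± 315 CPM, below the means of both other PEP1 types (1399.6 and 1165). Cadps2, which primes dense-core vesicles, was at 9.77 ± 3.94 CPM against 0.752 and 0.404 in the other PEP1 types, but NF2_Ntrk2.Necab2 held 277, and its difference from the other neurons was -0.21 on the log2 scale when these were summed.

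Of 16 receptors for neurotrophins, GDNF family ligands and cytokines 7 were called higher and 1, Ntrk3, lower (8.18% and 2.56% over all genes). Ngfr, the low-affinity neurotrophin receptor, was at 359, 947, 511, 629 and 651 CPM and was called higher than both other PEP1 types, by 2.57-fold and 4.23-fold. Ntrk2, the receptor for BDNF, was at 71.9, 91.6, 117, 61.9 and 63.1 CPM against 4.55 and 1.54 in the other PEP1 types (17.8-fold and 52.4-fold). It lay below the plain mean of the 11 types (86.5), which NF2_Ntrk2.Necab2 (756) carries. Gfra3, the receptor for artemin, was at 527, 269, 504, 405 and 223 CPM, a range that holds the means of both other PEP1 types (496 and 435), and it was below PEP1_S100a11.Tagln2 in 5 of 5 matched libraries. The range of Kit, the receptor for stem cell factor, at 79.8 ± 36.1 CPM, also held their means (45.0 and 97.9).

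Among 19 TRP, acid-sensing and purinergic channels 5 were called higher and 0 lower (8.18% and 2.56% over all genes). Trpa1, which opens to irritant chemicals, was at 195, 120.3, 18.9, 146 and 142 CPM, a mean of 124 ± 65.0 and the highest of the 12 types, 2.51-fold above NP_Mrgprd (49.6). Library 3 was far below the others for Trpa1, whose means in the other PEP1 types were 21.7 and 29.0, and PEP1_Dcn was above both in 5 of 5 matched libraries. Trpv1, the heat and capsaicin receptor, was more even at 537, 481, 471, 446 and 360.1 CPM. It was 1.47-fold above PEP3_Trpm8, 1.67-fold above PEP1_S100a11.Tagln2 (not called) and 2.71-fold above PEP1_Slc7a3.Sstr2 (called). Trpc4 and Trpm3 were also highest in PEP1_Dcn, at 11.6 ± 5.56 and 15.5 ± 5.24 CPM. Trpm2 was called at 20.8 ± 10.6 CPM, close to the plain mean of the others (21.2), and was not called when the other neurons were summed.

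In the list of mechanically gated channels and partners 3 of 9 were called higher (8.18% over all genes). All 3 were background potassium channels, Kcnk2, Kcnk4 and Kcnk10. Kcnk2 (TREK-type) was at 229, 166, 194, 187 and 203 CPM, 14.7-fold above PEP1_S100a11.Tagln2 (13.3) and 1.78-fold above PEP1_Slc7a3.Sstr2 (110.2). Piezo2, the channel of touch and proprioception, was not called, at 0, 173, 85.3, 72.3 and 158 CPM, and the cells of library 1 held no UMI of it. Potassium and HCN channels moved in both directions, with 9 of 41 higher and 8 lower (8.18% and 2.56% over all genes). The acid-sensitive background channel Kcnk3 was at 305, 314, 244, 227 and 229.7 CPM, 37.5-fold above PEP1_S100a11.Tagln2 (7.04) and 1.96-fold above PEP1_Slc7a3.Sstr2 (135). Kcnmb2, which inactivates BK channels, was at 104 ± 28.2 CPM and the highest of the 12. Kcnk1, at 4.37 ± 2.58 CPM, was the lowest of the 12 and called lower in all 3 comparisons, and Kcna1, a channel of fast-firing axons, was at 13.96 ± 10.7 CPM against 366. Of 13 sodium channel genes 3 were called higher (Scn2b, Scn3a and Scn3b) and 4 lower (Scn1a, Scn8a and Scn4b among them). Calcium channel genes had 4 of 14 higher and 2 lower, where again 8.18% and 2.56% of all genes were.

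Receptors that couple to inhibitory G proteins were called higher than the 11 other types in 11 of 20 cases and lower in 0. This was the highest share of the 17 lists, where 8.18% and 2.56% of all genes were called. The median log2 difference was 2.40. Much of this excess was shared with the nearest types. Against PEP1_S100a11.Tagln2 4 of the 20 were higher and 2 lower, with a median log2 difference of 0.37. For PEP1_Slc7a3.Sstr2 these values were 5, 2 and 0.60, where 4.55% and 4.56% of all genes were called higher. Beside Adra2a those called higher than the 11 types included the cannabinoid receptor Cnr1, at 127, 101, 80.1, 147 and 109 CPM. It was 5.54-fold and 3.41-fold above the other PEP1 types and level with NF_Pvalb (120.2). The adenosine receptor Adora1 was at 122 ± 25.6 CPM against 8.28 and 54.1 in the other PEP1 types. Galr1, a receptor for galanin, was at 15.5 ± 3.17 CPM and the highest of the 12, but only 1.45-fold above PEP1_Slc7a3.Sstr2. The kappa opioid receptor Oprk1 was at 9.75 ± 6.53 CPM, between PEP1_S100a11.Tagln2 (17.9) and PEP1_Slc7a3.Sstr2 (1.26). Npy1r, a receptor for neuropeptide Y, was at 99.1 ± 38.5 CPM and called lower than PEP1_Slc7a3.Sstr2 (253). Npy2r (13.6 ± 6.11 CPM) was called higher on the mean of log levels yet lay below the plain mean in 5 of 5 libraries, since NP_Nts held 284, and its sign turned when the other neurons were summed (-1.33). Sstr2, which names another PEP1 type, was at 2.60 ± 2.42 CPM against 71.1 ± 7.52 there.

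Of 19 inflammatory and itch receptors 4 were called higher and 0 lower (8.18% and 2.56% over all genes). Htr3a, the serotonin-gated channel, was at 188, 286, 227, 169.6 and 254 CPM, second to PEP2_Htr3a.Sema5a (634), and was 3.88-fold and 21.2-fold above the other PEP1 types. The prostacyclin receptor Ptgir was at 89.5 ± 34.1 CPM, also second to PEP2_Htr3a.Sema5a (106). Ptger1 was called higher than the 11 types and lower than PEP1_S100a11.Tagln2. F2rl2 was called higher at 84.8 ± 26.0 CPM, with a plain mean of 84.9 in the other types and -0.17 on the log2 scale when the other neurons were summed. Among the nicotinic and other ligand-gated channels, those called higher beyond the nicotinic subunits were the glutamate receptor subunits Gria1 (56.2 ± 7.72 CPM) and Grin3a (75.7 ± 22.1) and the GABA receptor subunit Gabra3. In the list of catecholamine and vesicular transmitter genes 2 of 9 were higher, Th and Gch1 (8.18% over all genes). Gch1, which makes the cofactor of tyrosine hydroxylase, stood at 20.5 ± 11.6 CPM and was highest in NP_Nts. Its level was 0.928-fold that of PEP1_S100a11.Tagln2, a type with 0.569 CPM of Th, above it in 2 matched libraries and below it in 3. Against PEP1_Slc7a3.Sstr2 Gch1 was 1.47-fold higher, which was not called. Against each other PEP1 type 1 of the 9, Th, was higher (4.55% and 4.56% over all genes).

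**Figure D3:**
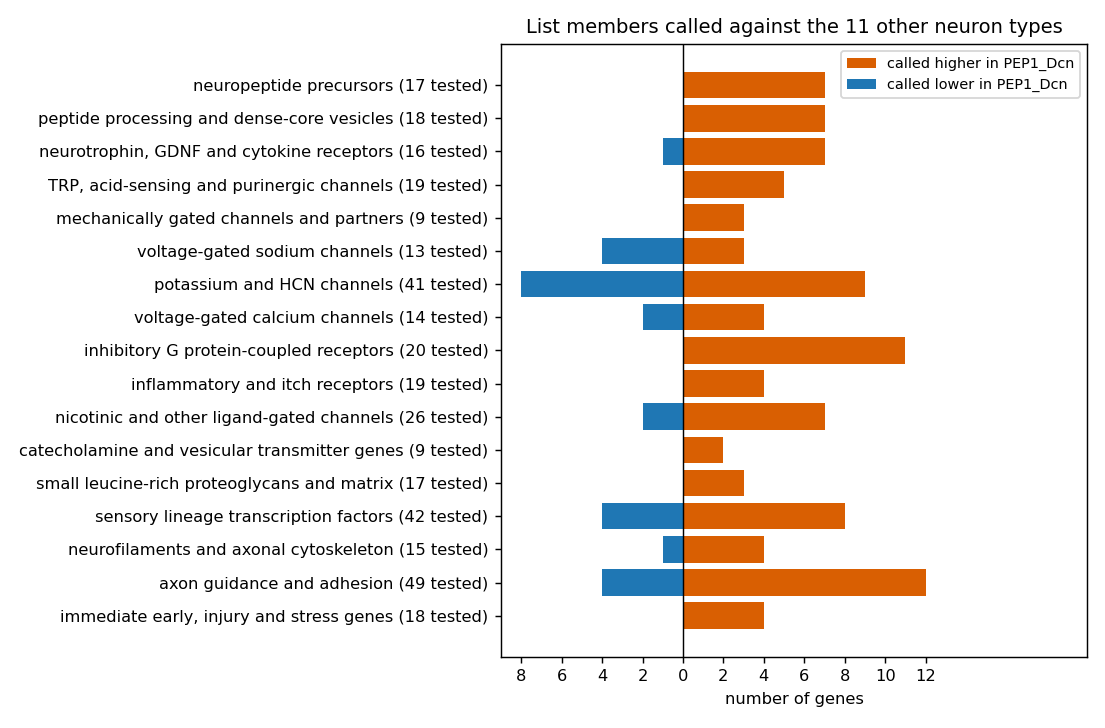
Number of genes of each functional list called higher (to the right) or lower (to the left) in PEP1_Dcn against the mean of the log levels of the 11 other neuron types, with the number tested in brackets. Inhibitory receptors have 11 higher and 0 lower of 20, while potassium and HCN channels are split, with 9 higher and 8 lower of 41. Over all genes tested 8.18% were called higher and 2.56% lower.

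In the list of small leucine-rich proteoglycans and matrix genes 3 of 17 tested were called higher, which were Dcn, the proteoglycan versican (Vcan, 13.1 ± 5.21 CPM) and the TGF-beta receptor Tgfbr1 (10.5 ± 2.62), and 0 lower, where 8.18% of all genes were called higher. Over the 12 neuron types the genes whose mean log2(CPM + 1) was most like that of Dcn were Rhbdd2 (Pearson r = 0.897, n = 12 types), Lppr2 (0.876), Ppap2b (0.874), Cited2 (0.859) and Snapc1 (0.834), which share the libraries and their depth with Dcn. Of these, Ppap2b, a lipid phosphatase of the cell membrane, was at 59.0 ± 17.0 CPM and 5.19-fold above the next neuron type. Satellite glia held far more of Ppap2b, at 510 ± 57.3 CPM. Cited2, a transcriptional co-regulator, was at 89.7 ± 19.8 CPM and 2.34-fold above the next neuron type. The other 3 differed from the next type by 1.30-fold or less.

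Of 42 transcription factors of the sensory lineage 8 were called higher and 4 lower, where 8.18% and 2.56% of all genes were. Rxrg, a retinoid receptor, was at 202, 111, 105, 210.0 and 127 CPM and the highest of the 12, 1.61-fold above PEP1_Slc7a3.Sstr2 (93.9). Bcl11a was at 17.6 ± 9.74 CPM, called higher than PEP1_S100a11.Tagln2 (3.74) and lower than PEP1_Slc7a3.Sstr2 (52.3). Tlx3, a regulator of the choice of glutamate as transmitter, was called lower than both other PEP1 types, at 71.1 ± 31.5 CPM against 173 and 270.1. Among neurofilament and axon skeleton genes 4 of 15 were higher and 1, Sncb, lower (8.18% and 2.56% over all genes). Gap43, a protein of growing axons, was at 1453 ± 119 CPM and second to PEP2_Htr3a.Sema5a.

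The other PEP1 types were compared directly, because they were also the nearest by overall profile. Across 16248 genes the Pearson correlation of log2(CPM + 1) with PEP1_Dcn was 0.948 ± 0.0232 (SD over 5 libraries) for PEP1_Slc7a3.Sstr2, 0.942 ± 0.0249 for PEP1_S100a11.Tagln2 and 0.927 ± 0.0307 for PEP2_Htr3a.Sema5a, in this order in 5 of 5 libraries. It fell to 0.855 for NF_Pvalb, 0.707 for satellite glia and 0.595 for endothelial cells. These values are across genes, which are not independent replicates, and the paired types share a library. Called higher than both other PEP1 types were 247 genes and lower than both 75, and 19 were higher than one and lower than the other.

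Against PEP1_S100a11.Tagln2, beside Tmem8c, Tmc3, Mrap2 and Nhlh2, the sialyltransferase St3gal5, which makes the ganglioside GM3, stood at 188, 145, 118, 75.8 and 88.6 CPM against 1.15 ± 1.42 (108-fold). Lower were the matrix protein Comp (0.602 against 38.0 ± 22.2 CPM, 63.1-fold), Lgals3 (2.67 against 139 ± 39.9), the protease Capn9 (1.73 against 60.5 ± 31.6, 35.0-fold), the LIM protein Crip1 (20.1 against 481 ± 214, 23.9-fold) and the G protein subunit Gna14 (7.38 against 104 ± 9.84, 14.1-fold). Lef1, a transcription factor of the Wnt pathway, was at 2.15 ± 1.19 CPM against 27.6 ± 4.98. The libraries of the 2 types did not overlap for any of these 7 genes.

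Against PEP1_Slc7a3.Sstr2 the follistatin-like Fstl5 was higher, at 34.2, 37.4, 25.4, 38.9 and 34.3 CPM against 0.799 ± 0.347 (42.6-fold), beside Ntrk2, Chrna3 and Chrnb4. Gm525 was at 61.8 ± 53.2 CPM against 0.831, with library 1 at 154. Lower were Dcdc2a (6 UMIs, all in library 2, against 57.9 ± 16.6 CPM), the vasopressin receptor Avpr1a (4 UMIs against 30.5 CPM), Sstr2 (27.4-fold), the receptor phosphatase Ptprt (8.21 against 187 ± 48.3 CPM, 22.7-fold), Tmem200c (13.9-fold) and Ppp1r14a (13.1-fold). The cytochrome Cyp2j12 was low against both, at 1.67 ± 1.73 CPM against 29.9 and 29.5, as was the metalloprotease inhibitor Timp3 (1.96 ± 1.97 against 32.4 and 20.1).

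**Figure D4:**
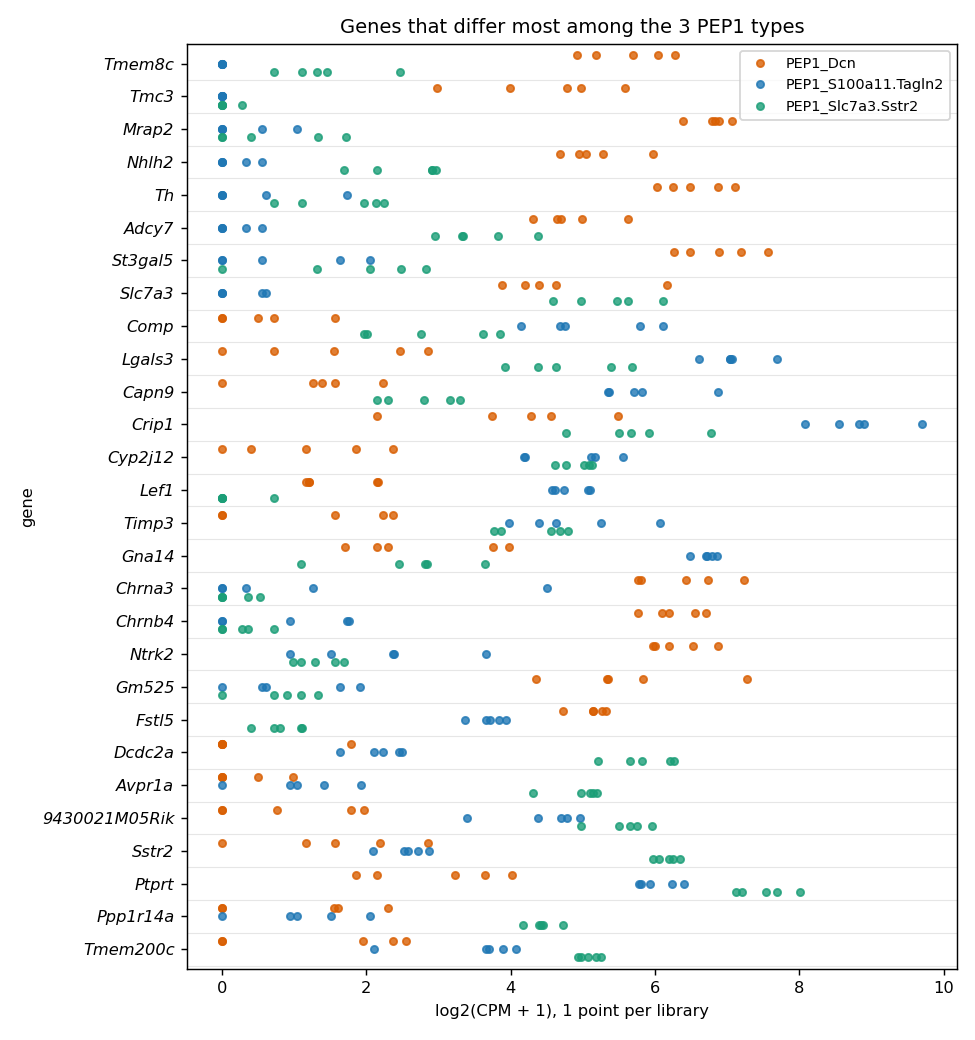
Levels of the genes that differ most among the 3 PEP1 types, on a log2(CPM + 1) axis, with 1 point per library and a colour per type. For Chrna3, Chrnb4, Th and St3gal5 the 5 PEP1_Dcn points lie to the right of all points of the other types, and for Sstr2 and Ptprt the PEP1_Slc7a3.Sstr2 points lie furthest to the right.

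PEP1_Dcn cells were not uniform. Patterns over single cells are given as Pearson correlations of ln(1 + UMIs per 10000) after subtracting each library's mean, over 163 cells and among genes with a UMI in at least 30% of them. They are descriptions chosen after the values were seen, from counts the authors also used to draw the type, and the points share libraries and differ in depth. Cells rich in Dcn were also rich in Tmem8c (r = 0.67, and 0.42 to 0.87 in the 4 libraries with at least 20 cells), in the LIM protein Csrp2 (0.68), in Nhlh2 (0.67), Ppap2b (0.66) and Zcchc12 (0.64). Both Dcn and Tmem8c were seen in 63 cells, Dcn alone in 48, Tmem8c alone in 12 and neither in 40, with median UMIs per cell of 43316, 49215, 55664.5 and 56328. The r of Dcn with UMIs per cell was -0.27, and the part of depth was not tested. Dcn ran against Map7d2 (-0.69), Sh3bgrl3 (-0.62) and Nacc2 (-0.61).

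Another pattern followed Htr3a, which had a UMI in 99 cells (60.7%, and 46.6% at 10000 UMIs against 4.8% of satellite glia). Cells rich in Htr3a were rich in S100b (r = 0.82), Thy1 (0.78), the heavy neurofilament Nefh (0.72), Nfib (0.71) and Cpne6 (0.70), and poor in Gal (-0.71), Pcp4 (-0.69) and Gpx3 (-0.69). Gfra3 and Htr3a ran against each other (-0.66, and -0.76 to -0.44 by library). Both were seen in 69 cells, Htr3a alone in 30, Gfra3 alone in 64 and neither in 0. Gfra3 also ran against Piezo2 (-0.78), with both in 56 cells, Gfra3 alone in 77, Piezo2 alone in 30 and neither in 0. Most genes named on the Htr3a side were higher in PEP2_Htr3a.Sema5a, where S100b was at 2454 CPM against 349 in PEP1_Dcn. Nefh was at 2724 against 231 and Thy1 at 1599 against 249, but Nfib at 82.3 ± 19.3 against 63.8 ± 16.7 was within the spread. Genes named on the other side were lower in PEP2_Htr3a.Sema5a than in PEP1_Dcn, with Gfra3 at 8.59 and Gal at 19.2 CPM. Pcp4 was still at 254 CPM there against 940 in PEP1_Dcn. Cells with both Htr3a and Gfra3 had a median of 52652 UMIs, cells with Htr3a alone 55854 and cells with Gfra3 alone 43303.5, and the part of depth, of doublets and of cells at the border of the 2 types was not tested. Dcn and Htr3a ran against each other less closely (-0.50), with both in 56 cells, Dcn alone in 55, Htr3a alone in 43 and neither in 9.

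A further pattern joined Trpa1 to Adra2a (0.63, and 0.55 to 0.73 by library), Frzb (0.66), Hs6st2 (0.64) and the nitric oxide synthase Nos1 (0.66, but 0.07 to 0.78 by library). Trpa1 and Adra2a were both seen in 45 cells, Adra2a alone in 18, Trpa1 alone in 24 and neither in 76. Cells with neither had a median of 40702.5 UMIs and cells with both 55927, so depth moved with this pattern (r of Trpa1 with UMIs per cell 0.34), and its part was not tested. Trpa1 ran against Aplp1 (-0.53) and against the injury and stress genes Atf3 (-0.51) and Jun (-0.49). Chrna3 and Chrnb4 were correlated at 0.72, and cells with both had a median of 59948.5 UMIs against 38013.5 for cells with neither. Chrna3 ran weakly against Dcn (-0.29, and -0.47 to -0.13 by library). Both were seen in 49 cells, Chrna3 alone in 31, Dcn alone in 62 and neither in 21. Cells with both had a median of 55927 UMIs and cells with Dcn alone 40702.5, and the part of depth was not tested.

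**Figure D5:**
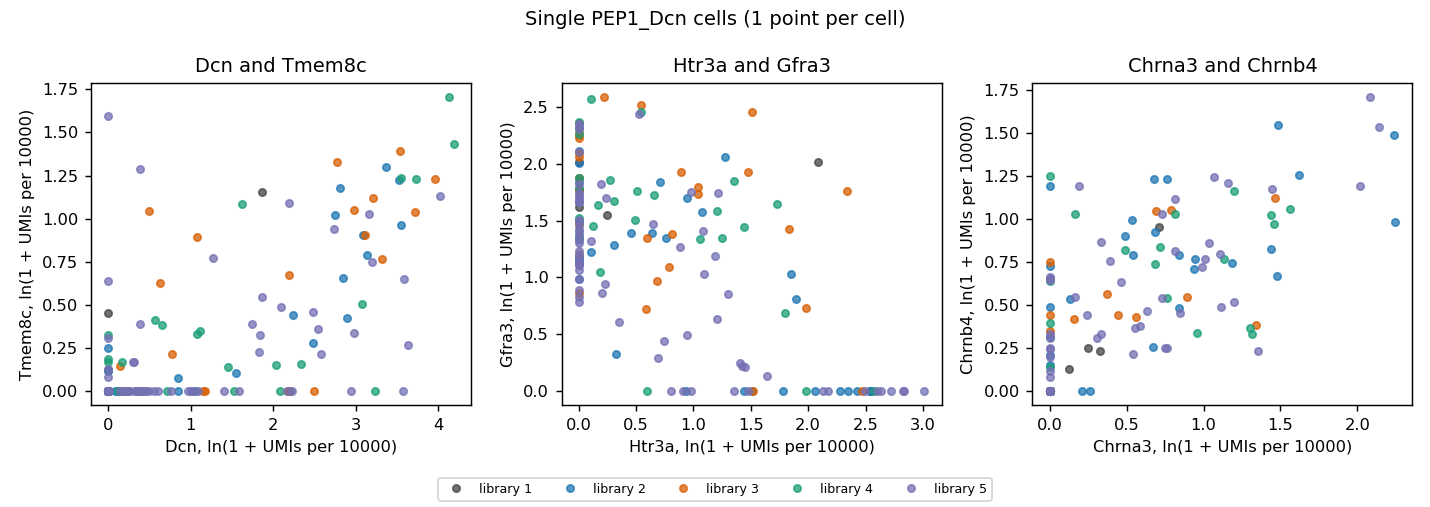
Levels of 3 gene pairs in the 163 single PEP1_Dcn cells, as ln(1 + UMIs per 10000) on both axes, with 1 point per cell coloured by library. Dcn and Tmem8c rise together, Htr3a and Gfra3 form arms along the axes with 69 cells holding both, and Chrna3 and Chrnb4 lie along a diagonal.

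Measures that were not used to name the type were compared over the 5 libraries with an exact sign-flip test, two-sided, whose smallest possible p is 0.063, so none of these 9 comparisons could pass 0.05. The mean of the library medians was 58517 UMIs per cell in PEP1_Dcn and 70893 in the other neurons, a difference of -12376 ± 4539 (SD), lower in 5 of 5 libraries (exact p = 0.063, adjusted 0.0938). Against PEP1_Slc7a3.Sstr2 PEP1_Dcn had 13868 ± 3274 more UMIs and 684.7 ± 166 more genes per cell, in 5 of 5 libraries each (exact p = 0.063, adjusted 0.0938). Against PEP1_S100a11.Tagln2 the difference of 8373 ± 16793 UMIs was within the spread, and it was 902 without library 1, where it was 38254. PEP1_Dcn also had 419 ± 673 more genes per cell than PEP1_S100a11.Tagln2, higher in 5 of 5 libraries (exact p = 0.063, adjusted 0.0938). This mean also rests mostly on library 1, at 1616, where the other libraries were at 51 to 243. The mitochondrial share of UMIs was 0.697 ± 0.599 percentage points above the other neurons (4 of 5 libraries, exact p = 0.125, adjusted 0.161) and 0.952 ± 0.563 points above PEP1_Slc7a3.Sstr2 (5 of 5 libraries, exact p = 0.063, adjusted 0.0938), and 9 of the 163 cells were above 10%.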

How the data were processed

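UMI counts per gene and cell were measured in 5 single-cell libraries. Per the study's methods the authors aligned reads to mm10 with Cell Ranger, kept cells with 500 to 15000 genes and at most 10% mitochondrial UMIs, and clustered with Seurat (15 components, resolution 0.6), and they deposited the counts as whole numbers with a table of cell types. Versions of the aligner's annotation were not given in the sources used here. Of the PEP1_Dcn cells, 9 exceed that mitochondrial limit. Whether doublets were removed before deposit was not stated, and no doublet caller was run here. The deposited spelling NF_Ca1b1 was kept. Of 17271 rows, 4 that name no mouse gene (6.37e-05% of UMIs) were left out.

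Counts were summed per neuron type and library (60 sums) and fitted with edgeR 4.0.16 (R 4.3.3; TMM factors, filterByExpr, quasi-likelihood test, Benjamini-Hochberg over all genes tested). Thresholds follow the study's cluster markers. Levels, shares and intervals used Python 3.11.15, numpy 2.4.6, scipy 1.17.1 and pandas 2.3.3. The fit was tested on simulated data. Named genes were Dcn, Calca and Th, the 25 called higher by the largest fold with at least 20 CPM and above the mean of the other types in 5 libraries, the 8 called lower by the largest fold with at least 50 CPM in the others, 8 each way against each PEP1 type, called members of the lists, and the 5 most like Dcn. Genes of the within-type patterns were chosen after their values were seen, and the members and lists were chosen with earlier results of these data known. Sums of the same library deviated together from their type means (r of 0.137 to 0.363 over 5 libraries, against at most 0.162 with another library), as sums of the same mouse, so a fit with the library as block was an alternative. Others were DESeq2 1.42.0, RLE factors, no count filter, no minimum share of cells, other thresholds, other reference sums, thinned cells, a mitochondrial limit and each library left out. Results for 3 genes are not reported here.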

Additional observations from a re-analysis of the deposited data

Results flagged for a closer look

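In 7 of 63 values tested, 1 library of PEP1_Dcn lay apart from the other 4 by more than 0.71 of the whole range, Dixon's limit for 5 samples, which chance passes in about 1 of 20 groups. C1qtnf7 was at 216 CPM in library 1 and 69.7 to 86.2 in the others. Gm525 was at 154 CPM in library 1, which holds 4 PEP1_Dcn cells, and 19.5 to 56.3 in the others. Library 2 was apart for 3 genes of low level, with Zfhx3 at 24.2 CPM (2.78 to 8.09 elsewhere), Ppm1j at 16.02 CPM (0.651 to 3.42) and Dcdc2a at 2.46 CPM (0 elsewhere). In library 3 Fxyd5 was at 162 CPM (63.7 to 81.3 elsewhere) and Slc7a3 at 71.0 CPM (13.7 to 23.8).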

How the results depend on the processing

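Setting PEP1_Dcn against 1 sum of all other neurons per library, in place of equally weighted types, raised the genes called lower from 296 to 892 (283 shared) and against 1 sum of all other cells to 926 (286 shared), while those called higher went from 946 to 709 (646 shared) and 658 (595 shared). Under the same sums the log2 difference changed sign for Cadps2 (-0.21 and -0.18), F2rl2 (-0.17 and -0.13), Nmb (-0.52 and -0.47), Npy2r (-1.33 and -1.28) and, against all other cells only, Vim (-0.20). These sums weight types by their UMIs, and so by both the number and the depth of their cells. Of 1872 values for single genes, 1816 kept their side of the adjusted p and fold thresholds, 47 lost the call and 9 reversed. A gene called under neither setting counted as kept even if its sign changed. The minimum of 25% of cells was not applied in this count.

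Leaving out each library gave 923 to 964 genes higher and 232 to 318 lower against the 11 types, 465 to 525 and 242 to 306 against PEP1_S100a11.Tagln2, and 473 to 549 and 213 to 284 against PEP1_Slc7a3.Sstr2. The calls of Ret (without library 1), Scn4b (2 or 3), Scn1a (3 or 5), and Cacng2, Shox2 and Cbln2 (5) were then lost. The fit with the library as a replicate block called 941 and 311, 547 and 306, and 535 and 291, and changed no call of a named gene.

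Over genes with at least 100 UMIs the correlation with PEP1_Dcn moved by over 1 SD, to 0.878 for NP_Mrgpra3, 0.862 for NP_Mrgprd, 0.858 for NP_Nts, 0.852 for Th, 0.845 for NF_Ca1b1, 0.833 for NF2_Ntrk2.Necab2, 0.811 for NF_Pvalb, 0.630 for satellite glia and 0.532 for endothelial cells. Thinning lowered the share of cells with Dcn to 50.9% and with Th to 44.2%. Library 1, with 4 cells, limits every SD.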

Other observations

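Genes of axon guidance and adhesion moved in both directions. Against the 11 other neuron types 12 of 49 were called higher and 4 lower (8.18% and 2.56% over all genes). Sema4d, a membrane semaphorin, was at 102.7, 91.6, 93.8, 107 and 81.5 CPM and the highest of the 12 types. Neuropilins, the co-receptors of secreted semaphorins, set PEP1_Dcn apart from PEP1_Slc7a3.Sstr2, with Nrp1 at 142 ± 16.5 against 14.1 CPM and Nrp2 at 80.3 ± 33.5 against 3.58 CPM. Plxnc1, a semaphorin receptor of non-peptidergic neurons, was called lower in all 3 comparisons at 5.69 ± 5.15 CPM against a mean of 68.4. The immediate early and stress genes, which dissociation of tissue is known to induce, had 4 of 18 called higher against the 11 types. These were Egr1, Ier2, Btg2 and Sox4, where 8.18% of all genes were called higher. Against PEP1_Slc7a3.Sstr2 Gadd45a was higher, and Jun (480 ± 126 against 989 CPM) and Dusp1 (66.6 ± 6.74 against 150.4) were lower.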
